A study of Rattus norvegicus with 6 samples.

Results

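Smooth-muscle contractile genes encode the thin and thick filaments, and their regulators, that smooth-muscle cells use to generate force. The 10 genes described here were chosen by symbol, with earlier results of these data known: Acta2, Actg2, Tagln, Cnn1, Myl9, Myh11, Lmod1, Tpm1, Tpm2 and Cald1, out of 17954 genes in the files. All 10 were present, and all 10 passed the low-count filter that 13052 genes passed. The cells were chondrocytes from the mandibular condyle of the rat, the cartilage-capped head of the jaw bone, and their mRNA was sequenced in 6 libraries. Of these, 3 came from cells grown flat (2D culture) and 3 from cartilage organoids, which are miniature tissues formed in vitro. Flat cultures received DMEM with 20% fetal bovine serum and antibiotics, whereas organoids received a chondrogenic medium, so format and medium cannot be told apart. The sources used here give no strain, age or passage. They also do not say whether the 3 libraries of a group stem from different animals or culture vessels, and the spread behind the p-values may therefore be technical.

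Smooth-muscle and non-muscle cells build actin filaments from different actin genes, and the smooth-muscle set adds proteins that stabilise the filament or hold myosin back from it. These genes are switched on through serum response factor (SRF), a DNA-binding protein that acts with cofactors of the myocardin family and binds a motif known as the CArG box. Outside smooth muscle a part of this set is a familiar feature of myofibroblasts and of mesenchymal cells spread on a stiff surface. Cultured chondrocytes that flatten are known to assemble actin stress fibres.

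Libraries held 18592574 to 26472447 estimated counts. Levels are given in CPM (counts scaled to library size, with TMM factors), either for each library or as a mean ± SD (n = 3). A positive log2 fold change means a higher level in organoids, and its error is an SE. A gene was called where the adjusted p of edgeR's quasi-likelihood test, over all 13052 genes, was under 0.05. Libraries of 2D culture resembled each other closely, with a median SD of log2 CPM of 0.137 over all tested genes, against 0.689 among organoids. Among markers of cartilage, Col2a1 (type II collagen) stood at 2.91, 4.22 and 4.89 CPM in 2D culture 1, 2 and 3 and at 78321, 6414 and 21945 CPM in organoid 1, 2 and 3. The 2D libraries labelled chondrocyte thus carried little Col2a1. They held Acan (aggrecan) at 1454, 1513 and 1413 CPM and Sox9, the cartilage master regulator, at 55.4, 54.3 and 51.4 CPM. Of 12 cartilage markers 11 were tested, of which 10 were called higher in organoids, 0 lower, and 1 did not pass. Over all tested genes 14.9% were called higher and 12.6% lower. The median log2 fold change of these markers was 8.94. Their summed level was 1502 to 1606 CPM in 2D culture and 11891 to 102640 CPM in organoids.

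The complete contractile set was lower in organoids. All 10 genes were called lower, against 12.6% of all tested genes called lower and 27.5% called in either direction. Because the 10 were chosen with earlier results known, this count is a description only. With libraries scaled by their totals instead of TMM, 3529 genes were called lower and 1063 higher over all, against 1650 and 1944, and the 10 were again all called lower. That scaling moved the median log2 fold change of all tested genes from -0.03 to -0.65. Every organoid library lay below every 2D library for all 10 genes, which held for 30.2% of tested genes. The median log2 fold change of the 10 was -5.44, against -0.03 over all tested genes. Together the 10 genes took 0.954% to 1.01% of all counts in the 2D libraries and 0.0611% to 0.119% in the organoid libraries. In bulk libraries, fewer cells carrying these transcripts and less transcript per cell cannot be told apart. Without any one 2D library 9 of the 10 stayed called, the exception being Tpm1, against 2.98% to 3.27% of all tested genes called lower. Calls over all genes also dropped in these fits, to 399 to 437 lower and 703 to 774 higher. A call lost without a 2D library was therefore common to many genes.

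**Figure D1:**
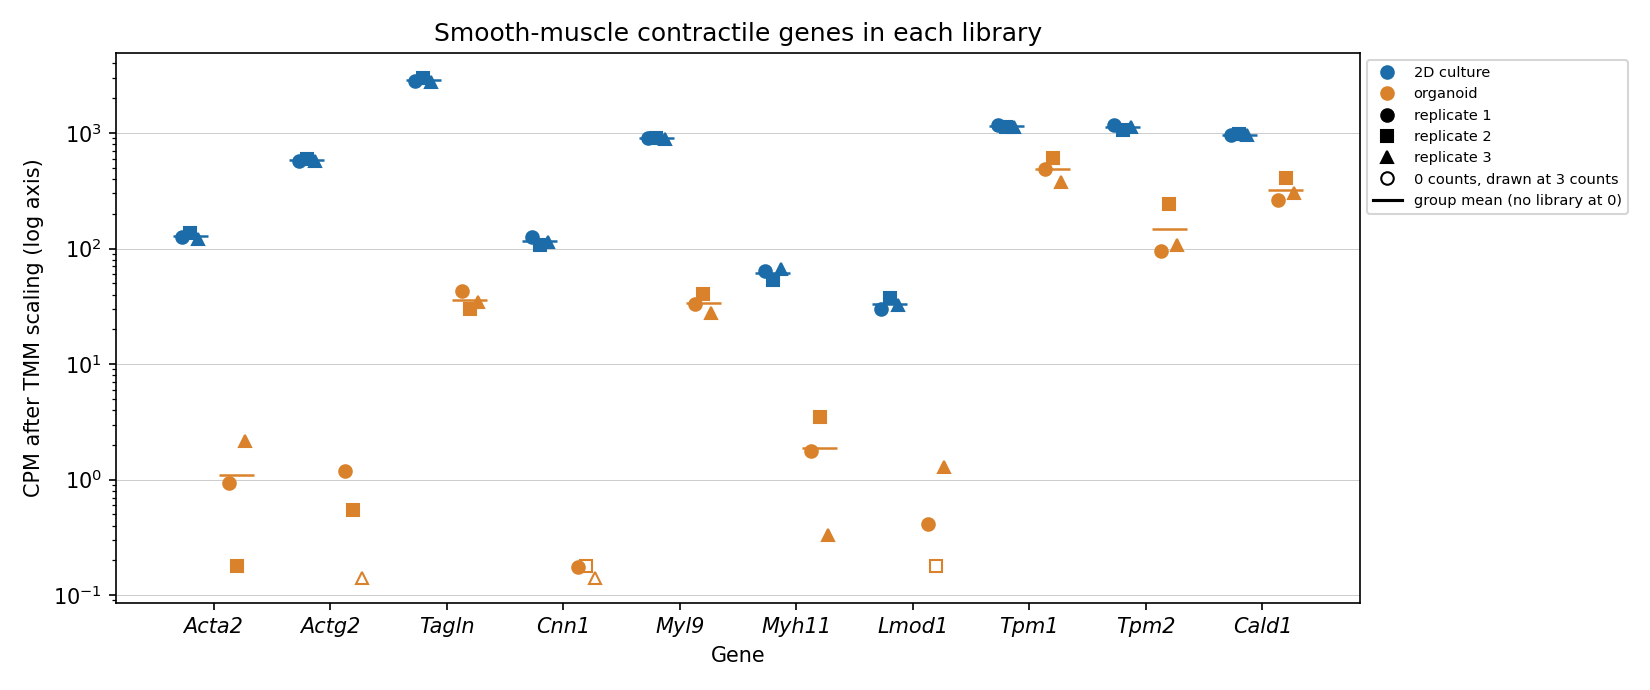
Level of each of the 10 genes in each library, in CPM after TMM scaling on a log axis; colour gives the group, marker shape the replicate number, bars the group mean where no library is at 0, and open markers stand for 0 counts drawn at the level of 3 counts. For each gene the 3 organoid libraries sit below the 3 2D libraries, closest for Tpm1 and Cald1 and farthest for Actg2 and Cnn1.

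The actins of the set were close to 0 in organoids. Acta2 (gene ID 81633) encodes smooth-muscle alpha-actin, the usual marker of myofibroblasts. It was at 127, 137 and 122 CPM in 2D culture 1, 2 and 3 and at 0.943, 0.18 and 2.18 CPM in organoid 1, 2 and 3. The organoids thus held 0.734%, 0.14% and 1.7% of the 2D mean (log2 change -6.83 ± 0.75, edgeR adjusted p = 0.00179), and they differed among themselves, organoid 3 being highest and organoid 2 lowest. Actg2 (gene ID 25365) encodes gamma-actin of enteric smooth muscle. It was at 572, 601 and 568 CPM in 2D culture and at 1.18, 0.541 and 0 CPM in organoids (log2 change -10.02 ± 0.995, edgeR adjusted p = 0.00123). Organoid 3 had 0 counts of it, which at a limit of 3 counts allows up to 0.142 CPM. Actg2 stood 16th from the lowest of the 13052 fitted changes. The coding sequences of the actins are closely alike, so reads can be shared within the family. Counts of Acta2 and Actg2 were whole numbers in all 6 libraries, whereas those of the non-muscle actins Actb and Actg1 were fractional in all 6.

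The stretch before the start of Acta2 is shown because this gene's SRF elements are the textbook example of how the set is switched on. The RefSeq promoter table (GRCr8) covered 6 of the 10 genes with 7 windows, each from 250 bases before to 50 after a gene's start, and printed here are the 250 bases before the Acta2 start at chr1:241172504-241172753, minus strand, 5′ to 3′. Capitals mark CArG-like stretches, in which at most 1 of the 6 central bases is C or G.
Acta2: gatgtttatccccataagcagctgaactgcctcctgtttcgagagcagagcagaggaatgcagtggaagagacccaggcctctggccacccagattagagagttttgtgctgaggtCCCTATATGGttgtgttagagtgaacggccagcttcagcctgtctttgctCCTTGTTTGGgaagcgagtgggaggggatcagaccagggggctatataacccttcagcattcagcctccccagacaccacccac
These stretches were CCCTATATGG, at bases -134 to -125 from the start, and CCTTGTTTGG, at bases -84 to -75. An exact CArG box, searched on both strands, was in 0 of the 7 windows and in 1.64% of 33469 windows of the same length in the table. A CArG-like stretch was in 1 of the 7, that of Acta2, and in 9.42% of all windows. The MCAT box CATTCC, the motif bound by TEAD factors, was on either strand in 3 of the 7 windows (Acta2, Tpm1 and 1 of the windows of Cald1) and in 14.2% of all. These are matches of letters in a short window and no measure of binding.

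Transcripts of other proteins that act on the actin filament, Tagln, Cnn1 and Lmod1, also fell. Tagln (gene ID 25123), which encodes transgelin or SM22, an actin-bundling protein, was at 2817, 2991 and 2739.8 CPM in 2D culture and at 43.1, 29.7 and 34.6 CPM in organoids (log2 change -6.31 ± 0.30, edgeR adjusted p = 0.000142). Organoid levels were 1.51%, 1.04% and 1.22% of the 2D mean, and this was the member with the smallest adjusted p. Cnn1 (gene ID 65204) encodes basic calponin, a brake on actomyosin in differentiated smooth muscle. It was at 125, 107 and 114 CPM in 2D culture and had 3, 0 and 0 counts in organoid 1, 2 and 3, against 11262 counts over the 2D libraries (edgeR adjusted p = 0.000343). The ratio of pooled levels was 2105, with an exact 95% interval of 720.0 to 10208 that covers counting error only. Lmod1 (gene ID 304816) encodes leiomodin, which nucleates actin filaments in smooth muscle. It was at 30.2, 37.6 and 32.2 CPM in 2D culture, with fractional counts in all 3 of those libraries, and at 0.412, 0 and 1.28 CPM in organoids (log2 change -5.83 ± 1.03, edgeR adjusted p = 0.00889). Organoid 2 had 0 counts of Lmod1, which at a limit of 3 counts allows up to 0.18 CPM, and organoid 3 the most.

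Tropomyosin and caldesmon transcripts kept a larger part of their 2D level. Tropomyosins lie along the actin filament, and both genes have splice forms outside smooth muscle that a gene-level count adds up. Tpm1 (gene ID 24851) was at 1182, 1126 and 1124 CPM in 2D culture and 486, 603 and 378 CPM in organoids, or 42.5%, 52.7% and 33.1% of the 2D mean (log2 change -1.23 ± 0.25, edgeR adjusted p = 0.0136). Its call was lost without any one 2D library (adjusted p = 0.068 to 0.0742), while its fitted change stayed between -1.26 and -1.22. Tpm2 (gene ID 500450) was at 1168, 1067 and 1136 CPM and 95, 241 and 108 CPM (log2 change -2.92 ± 0.41, edgeR adjusted p = 0.00419), with organoid 2 well above the other organoids. Cald1 (gene ID 25687), the caldesmon gene, whose product blocks myosin from actin and which also has a long smooth-muscle and a short non-muscle form, was at 957, 980.3 and 961 CPM and 262, 408 and 299.9 CPM (log2 change -1.58 ± 0.25, edgeR adjusted p = 0.00555). For these genes the organoid libraries lay below all 2D libraries with at least 1612 counts of each gene in each.

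Both myosin genes of the set were lower. Myh11 (gene ID 24582) encodes the smooth-muscle myosin heavy chain, the most lineage-restricted marker of the 10. It was at 64.3, 52.9 and 66.9 CPM in 2D culture and 1.77, 3.49 and 0.331 CPM in organoids (log2 change -5.06 ± 0.76, edgeR adjusted p = 0.00534). Myl9 (gene ID 296313) encodes the regulatory light chain whose phosphorylation starts contraction. It was at 905, 911 and 885 CPM in 2D culture and 33.1, 40.4 and 27.5 CPM in organoids (log2 change -4.74 ± 0.26, edgeR adjusted p = 0.000197), or 3.68%, 4.48% and 3.05% of the 2D mean. Myl9 and Tagln were even among organoids, whereas Myh11 spanned 10.5-fold from organoid 3 to organoid 2.

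Organoids did not share one order across the set. Organoid 1 was the highest of the 3 for 3 genes (Actg2, Tagln and Cnn1), organoid 2 for 5 (Myl9, Myh11, Tpm1, Tpm2 and Cald1) and organoid 3 for 2 (Acta2 and Lmod1). The order of Cnn1 rests on 3, 0 and 0 counts. Its exact 95% counting intervals in organoid 1 (0.036 to 0.517 CPM) and organoid 2 (0 to 0.222 CPM) overlapped. Acta2 spanned 12.1-fold among organoids, and the exact 95% counting intervals of organoid 2 (0.0372 to 0.527 CPM) and organoid 3 (1.59 to 2.90 CPM) did not overlap. The fitted log2 change moved for several genes when an organoid library was left out. For Cnn1 it went from -10.9 to -14.6 without organoid 1, the only organoid library with counts of this gene. It was -7.83 for Acta2 without organoid 3, -11.16 for Actg2 without organoid 1 and -9.40 without organoid 3. It was -5.87 for Myh11 without organoid 2, and -5.22 and -7.30 for Lmod1 without organoid 2 and organoid 3, while the calls of these genes held. In 2D culture the highest library exceeded the lowest by 1.02-fold (Cald1) to 1.26-fold (Myh11). The median SD of log2 CPM over the 10 genes was 0.0657 in 2D culture and 0.855 in organoids.

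Each family also has partner genes used outside smooth muscle, and many of these were lower too. Of 19 tested partners, 11 fell, 2 rose and 6 did not pass, with a median log2 fold change of -1.27, beside 12.6% of all tested genes called lower and 14.9% called higher. Actb, the main non-muscle actin, fell to 6526 ± 628 CPM in organoids from 18932 ± 349 CPM in 2D culture (log2 change -1.54 ± 0.24, edgeR adjusted p = 0.00593). Actg1, the other non-muscle actin, was at 4123 ± 161 and 1708 ± 787 CPM and did not pass (log2 change -1.27 ± 0.41, edgeR adjusted p = 0.0584). It did pass with total library size (adjusted p = 0.00715), with DESeq2 (adjusted p = 0.00682), with limma-voom (adjusted p = 0.00399), and once organoid 2 was left out (adjusted p = 0.00561). The widely expressed transgelin Tagln2 fell by 1.85, the calponin Cnn2 fell by 1.13 and Cnn3 fell by 1.94 on the log2 scale. The non-muscle myosin heavy chain Myh9 fell by 1.90 and Myh10 fell by 2.32. Of the tropomyosins common in non-muscle cells, Tpm3 fell by 1.68 and Tpm4 fell by 1.99, both fitted changes lying between those of Tpm1 and Tpm2.

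Partners did not all move down. The regulatory light chain gene Myl12a fell (log2 change -2.38 ± 0.28, edgeR adjusted p = 0.00207), while its neighbour in function Myl12b rose from 89.9, 95.6 and 87.7 CPM to 211, 273 and 220.1 CPM (log2 change 1.37 ± 0.20, edgeR adjusted p = 0.00419); both have fractional counts in 4 libraries, so reads may be split between them. The call of Myl12b was lost with total library size (adjusted p = 0.0527). Lmod3, the leiomodin of striated muscle, rose from 0.46, 0.948 and 0.65 CPM to 9.01, 4.75 and 6.67 CPM (log2 change 3.30 ± 0.65, edgeR adjusted p = 0.0121). Myl6, the essential light chain shared by smooth and non-muscle myosin, fell by 1.12, and Tmod2, a cap of the pointed filament end, fell by 3.78 on the log2 scale and fell by 4.43 without organoid 1. The calls of Cnn2, Tpm3, Myl6, Tmod2 and Lmod3 were lost without any one 2D library (adjusted p = 0.0594 to 0.126), that of Tpm3 also without organoid 1 (adjusted p = 0.0571) and that of Tmod2 also with limma-voom (adjusted p = 0.0612). The partners called lower numbered 7 without any one 2D library, and those called higher 1.

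**Figure D2:**
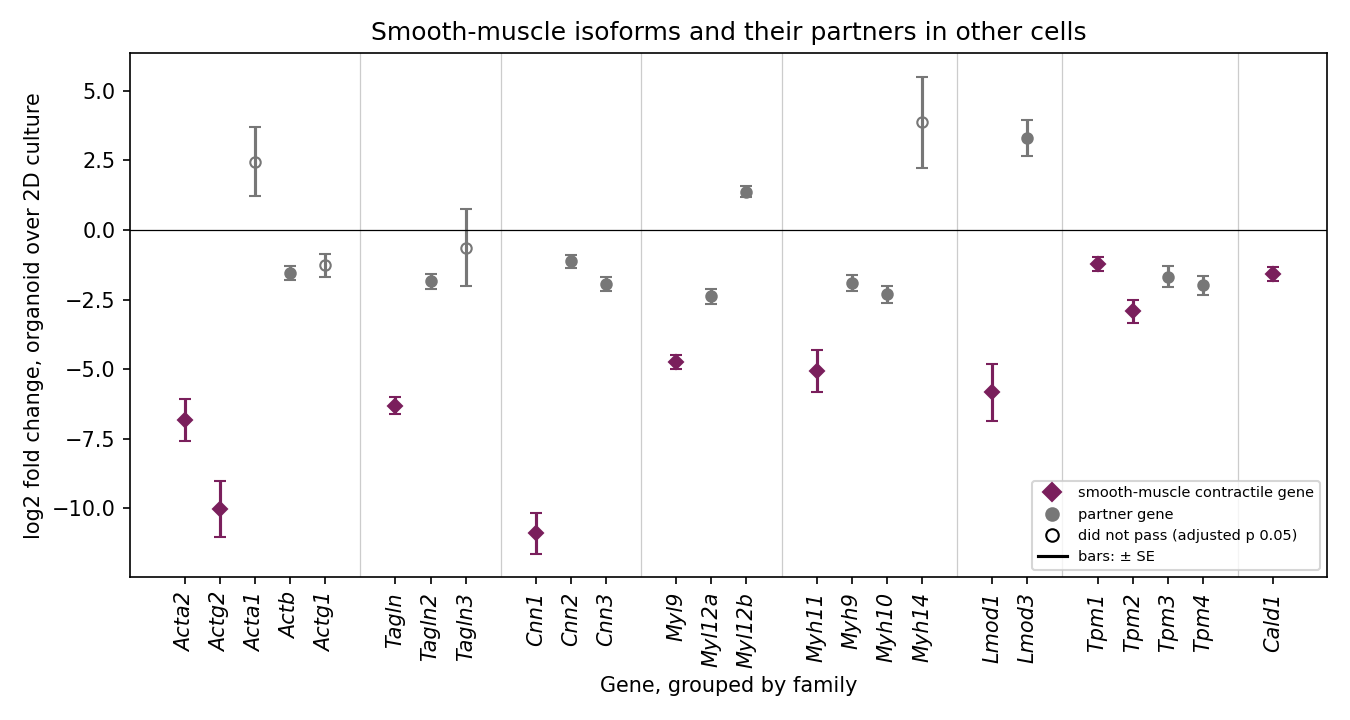
Log2 fold change of organoid over 2D culture (± SE, edgeR) for the smooth-muscle contractile genes (diamonds) and tested partners (circles), grouped by family. Filled markers passed at an adjusted p of 0.05. The tested partners Myl6, Tmod1, Tmod2 and Tmod3 are in none of the families drawn and are not shown. The 7 members from Acta2 to Lmod1 lie at or below -4.74, while the partner Actb lies at -1.54 and Lmod3 at 3.30.

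The share of a family's counts that falls on its smooth-muscle genes is taken within a library and does not depend on scaling between libraries. Acta2 and Actg2 together made up 3.01%, 3.06% and 2.86% (2D culture 1, 2 and 3) against 0.0242%, 0.0107% and 0.0236% (organoid 1, 2 and 3) of the counts of 6 actin genes. Tagln made up 83.7%, 83.1% and 82.2% (2D culture 1, 2 and 3) against 23.8%, 18% and 14% (organoid 1, 2 and 3) of the transgelin counts. Myl9 made up 42.5%, 42.4% and 41.8% (2D culture 1, 2 and 3) against 6.54%, 8.66% and 5.62% (organoid 1, 2 and 3) of the regulatory light chain counts (Myl9, Myl12a and Myl12b). In these families the groups did not overlap, and the organoid share was lower.

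Calponin, myosin and leiomodin shares followed the same direction. Cnn1 made up 9.03%, 7.62% and 8.27% (2D culture 1, 2 and 3) against 0.0416%, 0% and 0% (organoid 1, 2 and 3) of calponin counts, where the Wilson 95% interval of organoid 3 reached 0.0404%. Myh11 made up 8.98%, 8.02% and 9.06% (2D culture 1, 2 and 3) against 0.891%, 1.99% and 0.25% (organoid 1, 2 and 3) of the counts of Myh9, Myh10, Myh11 and Myh14. Lmod1 made up 98.5%, 97.5% and 97.9% (2D culture 1, 2 and 3) against 4.38%, 0% and 16.1% (organoid 1, 2 and 3) of leiomodin counts. Tropomyosin was the exception: Tpm1 and Tpm2 made up 65.9%, 67.2% and 65.9% (2D culture 1, 2 and 3) against 63.2%, 82.3% and 51.7% (organoid 1, 2 and 3), so the groups overlapped and the organoids fell on both sides of 2D culture. In the exact two-sided permutation test over 6 libraries, p was 0.1 (adjusted 0.117 over 7 families) for each family but tropomyosin (p = 1). With 3 against 3 libraries 0.1 is the smallest p that this test can give, so none could pass 0.05.

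**Figure D3:**
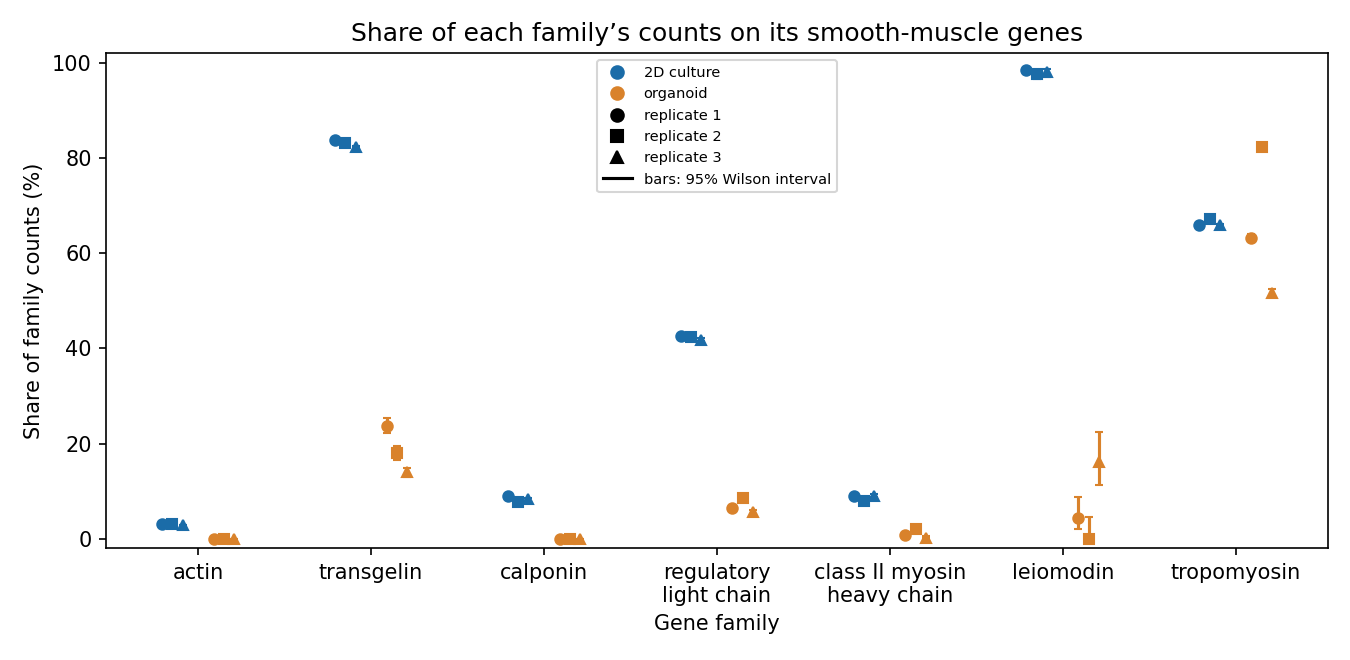
Percentage of each family's counts that falls on its smooth-muscle genes, by library; colour gives the group, marker shape the replicate number, and bars the 95% Wilson interval, which covers counting error only. In all families but tropomyosin the organoid libraries lie below the 2D libraries, as for transgelin, with 82.2% to 83.7% in 2D culture and 14.0% to 23.8% in organoids.

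Of 25 other genes known from smooth muscle, all tested, 8 fell, 4 rose and 13 did not pass, beside 12.6% of all tested genes called lower and 14.9% called higher, so that the share that rose was near that of all genes. Their median log2 fold change was -1.56, and total library size gave 12 lower and 1 higher. Flna, the actin crosslinker filamin A, fell from 2188, 2069 and 2241 CPM to 429, 402 and 407 CPM (log2 change -2.39 ± 0.22, edgeR adjusted p = 0.000887). Csrp1, an actin-associated LIM protein, fell by 2.52 on the log2 scale, and Fhl2, another LIM protein and SRF target, fell from 132 ± 3.88 to 9.45 ± 0.378 CPM (log2 change -3.80 ± 0.20, edgeR adjusted p = 0.000168). Itga8, an integrin chain of contractile mesenchyme, had 20.0, 20.4 and 21.6 CPM in 2D culture and 1.47, 0 and 0 CPM in organoids (log2 change -5.41 ± 1.51, edgeR adjusted p = 0.0392), a call lost without any one 2D library (adjusted p = 0.115 to 0.123). All its organoid counts were in organoid 1, and its fitted change was -12.12 without that library and -4.80 without organoid 2 or organoid 3. Kcnmb1, a potassium channel subunit of smooth muscle, had 92 counts over 2D culture and 0 over organoids, so it was at least 17.2-fold lower against 3 counts over the group (edgeR adjusted p = 0.0172, and 0.081 to 0.0895 without one 2D library).

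Among the 4 that rose was Mylk, the kinase that phosphorylates the regulatory light chain. It was at 5.76, 8.1 and 7.43 CPM in 2D culture and 18.5, 36.1 and 13.6 CPM in organoids (log2 change 1.68 ± 0.44, edgeR adjusted p = 0.032). Its call was lost without any one 2D library (adjusted p = 0.104 to 0.137) and when libraries were scaled by their totals instead of TMM (adjusted p = 0.13). Smtnl2, a smoothelin-like gene, rose from 0.245, 0.275 and 0.217 CPM to 52.8, 8.23 and 22.9 CPM (log2 change 6.80 ± 0.83, edgeR adjusted p = 0.00259), with a fitted change of 5.99 without organoid 1. Smtn, smoothelin itself, was at 338, 306 and 346 CPM in 2D culture and 514, 385 and 370.1 CPM in organoids and did not pass (log2 change 0.36 ± 0.22, edgeR adjusted p = 0.266); its fitted change turned to -0.29 with total library size. Without any one 2D library the counts of the list were 6 lower and 1 higher.

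Myocardin, the cofactor that drives SRF on smooth-muscle genes, was among the genes that fell. Myocd (gene ID 246297) was at 43.6, 58.9 and 54.8 CPM in 2D culture and 1.12, 0.12 and 0 CPM in organoids, where the counts were 19, 2 and 0 (log2 change -7.02 ± 1.09, edgeR adjusted p = 0.00576). Its fitted change was -9.79 without organoid 1 and -6.39 without organoid 3, and its call held in both. Srf itself (gene ID 501099) was low in both groups, at 6.44, 9.26 and 6.19 CPM and 1.41, 13 and 0 CPM, and did not pass (log2 change -0.61 ± 1.52, edgeR adjusted p = 0.799): organoid 2 was above all 2D libraries and organoid 3 had 0 counts. The actin-sensing cofactors of the same family differed in sign. Mrtfa was at 54.9, 58.4 and 62.1 CPM and 40.2, 12.8 and 23.9 CPM and did not pass (log2 change -1.19 ± 0.41, edgeR adjusted p = 0.0719). It did pass with total library size (adjusted p = 0.00729), with DESeq2 (adjusted p = 0.0286), with limma-voom (adjusted p = 0.0283) and without organoid 1 (adjusted p = 0.0226). Mrtfb rose from 4.78, 5.38 and 4.77 CPM to 12.5, 19.8 and 14.5 CPM (log2 change 1.65 ± 0.36, edgeR adjusted p = 0.0172), a call lost without any one 2D library (adjusted p = 0.085 to 0.1) and with total library size (adjusted p = 0.101).

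Over this list of SRF, its cofactors and opposing factors, 2 of 18 tested genes fell, 6 rose and 10 did not pass, beside 12.6% and 14.9% of all tested genes, and the share that fell was near that of all genes. The median log2 fold change of the list was 0.34, and total library size turned the balance to 5 lower and 2 higher. Beside Myocd the gene that fell was Tead1, a TEAD factor that binds the MCAT box, from 87.6 ± 9.97 to 19 ± 4.82 CPM (log2 change -2.20 ± 0.26, edgeR adjusted p = 0.00215). Klf4, known to repress smooth-muscle genes, rose from 21, 28.9 and 18.6 CPM to 67.6, 352 and 136 CPM (log2 change 3.02 ± 0.62, edgeR adjusted p = 0.0144), a call lost without any one 2D library (adjusted p = 0.0576 to 0.0754); its fitted change was 2.21 without organoid 2. Mef2c, a factor of muscle and of hypertrophic cartilage, rose from 48.5 ± 1.06 to 859 ± 214 CPM (log2 change 4.15 ± 0.28, edgeR adjusted p = 0.000343). Tgfb2, a ligand of the pathway that induces Acta2 in fibroblasts, rose from 97.3 ± 6.6 to 259 ± 157 CPM (log2 change 1.41 ± 0.42, edgeR adjusted p = 0.0456) and lost its call without any one 2D library (adjusted p = 0.144 to 0.157), with total library size (adjusted p = 0.12) and with no low-count filter (adjusted p = 0.057). Its fitted change was 0.82 without organoid 1. Prrx1, a mesenchymal homeobox factor, was at 239 ± 11.8 and 161 ± 17.4 CPM and did not pass (log2 change -0.57 ± 0.19, edgeR adjusted p = 0.0632). It did pass with total library size (adjusted p = 0.0108), with DESeq2 (adjusted p = 0.011) and without organoid 2 (adjusted p = 0.0106). Without any one 2D library 1 gene of the list was called higher and 2 lower.

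**Figure D4:**
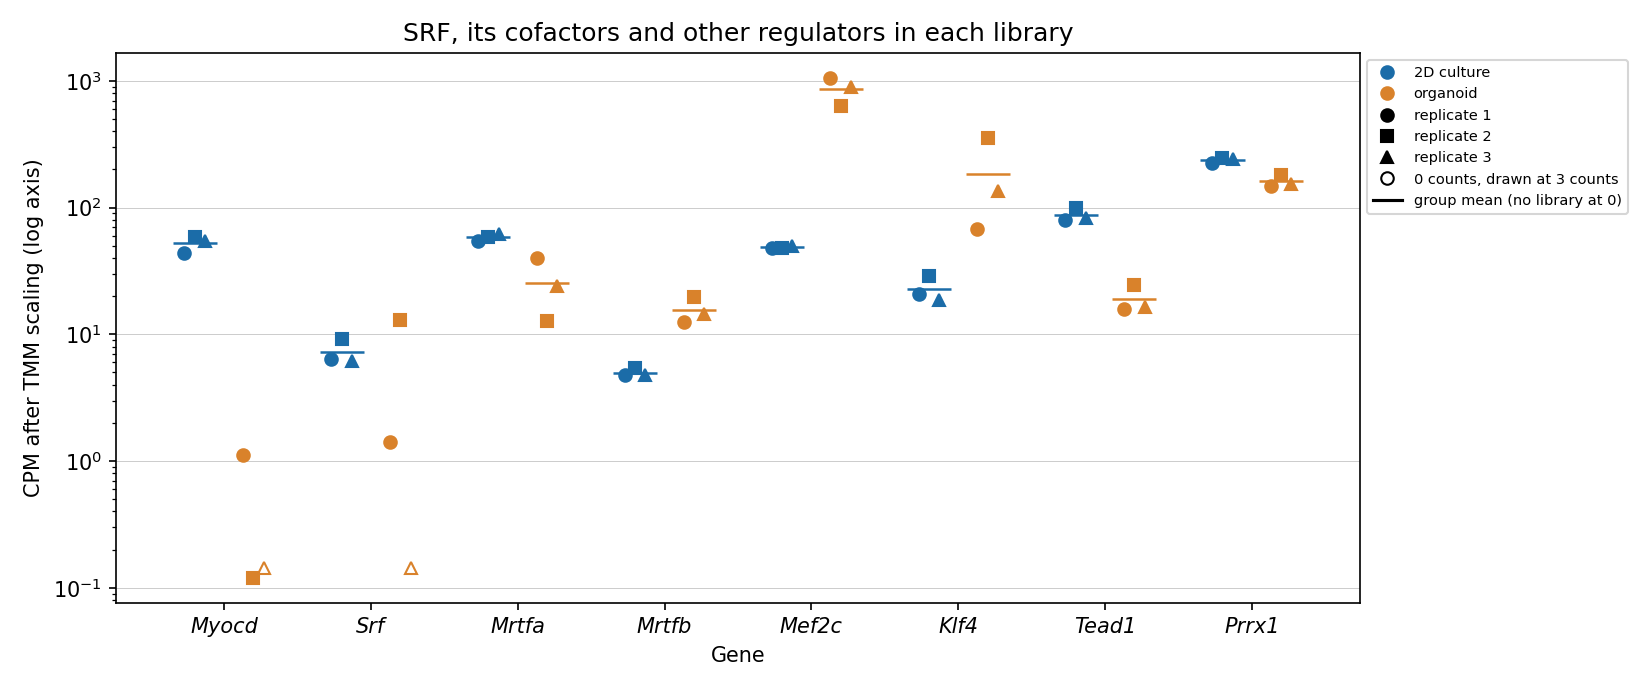
Level of SRF, its cofactors and other regulators in each library, in CPM after TMM scaling on a log axis; colour gives the group, marker shape the replicate number, bars the group mean where no library is at 0, and open markers stand for 0 counts drawn at the level of 3 counts. Myocd, Tead1, Mrtfa and Prrx1 lie lower in all organoids, though Mrtfa and Prrx1 did not pass. Mef2c, Klf4 and Mrtfb lie higher, and Srf overlaps.

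The RhoA and ROCK pathway raises light chain phosphorylation and actin assembly. Of 21 genes 3 fell, 3 rose and 15 did not pass, which is near the 12.6% of all tested genes called lower and the 14.9% called higher. Their median log2 fold change was 0.18, and total library size gave 7 lower and 1 higher. The GTPase Rhoa was at 238, 237 and 226 CPM in 2D culture and 236, 88.8 and 250.5 CPM in organoids (log2 change -0.29 ± 0.39, edgeR adjusted p = 0.62), and its fitted change was 0.10 without organoid 2. Rhoc was at 224 ± 3.39 and 228 ± 17.3 CPM (log2 change 0.03 ± 0.18, edgeR adjusted p = 0.922), which turned to -0.60 with total library size (adjusted p = 0.0485). Those that fell were the actin-severing cofilins Cfl1 (log2 change -1.05 ± 0.27, edgeR adjusted p = 0.028) and Cfl2 (log2 change -2.36 ± 0.29, edgeR adjusted p = 0.00255) and the formin Diaph3 (log2 change -2.44 ± 0.38, edgeR adjusted p = 0.00593). Arhgef1, an exchange factor for RhoA, rose from 88.9 ± 10.7 to 395 ± 97.4 CPM (log2 change 2.15 ± 0.25, edgeR adjusted p = 0.00226). Mylk, already counted among the other smooth-muscle genes, is in this list too and is among the 3 that rose. Cfl1 shares reads in all 6 libraries and lost its call without any one 2D library (adjusted p = 0.107 to 0.112) and without organoid 3 (adjusted p = 0.0578).

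Markers of other cells that carry contractile genes were measured beside the set. Of 9 markers of pericytes and vascular mural cells, 5 were tested, of which 1 fell and 2 rose, beside 12.6% of all tested genes called lower and 14.9% called higher. Their summed level was 357 to 424 CPM in 2D culture and 2076 to 3337 CPM in organoids, where Ndufa4l2, also known as a hypoxia gene, made up 2011, 1669.9 and 1906 CPM. Cspg4 rose from 187, 188 and 207 CPM to 1266, 397 and 584 CPM (log2 change 1.95 ± 0.44, edgeR adjusted p = 0.0198). Mcam fell from 18.4, 17 and 16.6 CPM to 1, 0.361 and 4.12 CPM (log2 change -3.23 ± 0.86, edgeR adjusted p = 0.0331). Notch3 was at 5.25 ± 0.98 and 11.8 ± 4.52 CPM and did not pass. The mural markers Rgs5 and Abcc9 had 0 counts in every 2D library, which at a limit of 3 counts allows up to 0.0917 to 0.0929 CPM in each. They had at most 8 counts in an organoid library. Pdgfrb, a receptor of mural cells and fibroblasts, was at 158, 145 and 195 CPM in 2D culture and 43, 1.98 and 19.4 CPM in organoids and did not pass (log2 change -2.95 ± 0.92, edgeR adjusted p = 0.0537), but did with total library size (adjusted p = 0.0154), with DESeq2 (adjusted p = 0.00108), with limma-voom (adjusted p = 0.00633), without organoid 1 (adjusted p = 0.0417) and without organoid 2 (adjusted p = 0.00873). Of 8 endothelial markers only Egfl7 and Tek were tested. Egfl7 fell from 20.7, 21.2 and 21.5 CPM to 12.5, 4.63 and 5.87 CPM (log2 change -1.46 ± 0.44, edgeR adjusted p = 0.0481), a call lost without any one 2D library (adjusted p = 0.147 to 0.156), without organoid 2 or 3 (adjusted p = 0.0584 and 0.081), with DESeq2 size factors (adjusted p = 0.0521), with no low-count filter (adjusted p = 0.0535) and with limma-voom (adjusted p = 0.0562). Tek was at 0.368, 0 and 0.279 CPM and 0.884, 1.74 and 0.0946 CPM and did not pass (log2 change 2.04 ± 1.47, edgeR adjusted p = 0.342). Kdr had 33 counts over 2D culture and 0 over organoids, Pecam1 had 1 and 8 counts, and Vwf had 6 and 30 counts. Cdh5, Emcn and Tie1 had 0 counts in 2D culture and 14, 5 and 19 counts in organoid 1, while organoids 2 and 3 together had 1 count of these genes.

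Fibroblast and myofibroblast markers were high in both groups. Of 10, all tested, 3 fell, 1 rose and 6 did not pass, beside 12.6% of all tested genes called lower and 14.9% called higher. Their summed level was 20731 to 24109 CPM in 2D culture and 6302 to 22553 CPM in organoids, so that the ranges overlapped. Thy1, a surface marker of mesenchymal cells, fell from 1420.2, 1406 and 1404 CPM to 233, 105 and 346 CPM (log2 change -2.63 ± 0.44, edgeR adjusted p = 0.00765), and S100a4, a fibroblast marker, fell by 2.75 on the log2 scale, and fell by 3.37 without organoid 2. Postn, a matrix protein of myofibroblasts and bone surfaces, rose from 241 ± 24.6 to 851 ± 427 CPM (log2 change 1.82 ± 0.41, edgeR adjusted p = 0.0195), a call lost without any one 2D library (adjusted p = 0.0881 to 0.0946). Of 7 tested skeletal muscle markers 1 fell, 2 rose and 4 did not pass, beside the same shares of all genes, with a summed level of 5.47 to 7.72 CPM in 2D culture and 5.71 to 13.3 CPM in organoids, and Myod1, the muscle master gene, had 1 count in all 6 libraries together. The part of any such cells, if present, in the fall of the contractile genes was not tested.

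Among the tested genes outside the set whose log2 CPM over the 6 libraries was most like the mean of the 10, each centred and scaled, were Ppp5c, Cyp20a1 and Fhl2. Pearson's r was 0.999, 0.999 and 0.999, as a description over 6 libraries that share the same contrast of 2 groups. Ppp5c, a serine/threonine phosphatase, was at 87.4, 82.9 and 81.8 CPM in 2D culture and 35.4, 36.8 and 33.1 CPM in organoids. Its change was smaller than that of Fhl2 (log2 change -1.26 ± 0.18 against -3.80 ± 0.20). By its construction r does not depend on the size of a change.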

How the data were processed

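For each library the authors deposited expected counts per gene (estimates from read assignment, partly fractional and without normalisation), beside gene ID and symbol. Per the labels' protocols, Trizol was used to extract RNA and a DNBSEQ mRNA kit to prepare libraries. Per the submitters' processing notes, HISAT, HISAT2, Bowtie2, RSEM and DESeq2 were used, without versions or roles. No build, annotation or strand setting is given in the sources used here. Fractional values mark reads shared among genes.

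Counts were rounded and analysed in R 4.3.3 with edgeR 4.0.16: filterByExpr (minimum count 10), TMM scaling (factors 0.662 to 1.266), robust quasi-likelihood F-test, Benjamini-Hochberg adjustment over 13052 genes at 0.05. SEs were derived from the fitted log2 change and its F statistic. Family shares were compared by exact permutation in SciPy 1.17.1. Alternatives used limma 3.58.1 and DESeq2 1.42.0. The edgeR steps were run on simulated data in which both groups had the same spread. The real groups differed in spread (median SD of log2 CPM 0.137 in 2D culture and 0.689 in organoids), which the simulation does not cover. Intervals and the limit of 3 counts for a count of 0 cover counting error only. The exact 95% intervals reach higher at 0 counts than that limit, 0.222 against 0.18 CPM in organoid 2. All replicate pairs differed beyond sampling noise (lowest chi-square 8.80 per degree of freedom).

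The 10 genes and the other lists were chosen with earlier results of these data known. Named beyond the 10 are, per list, the 3 tested genes of highest mean CPM and the 3 called genes of largest change, in part, and the genes most like the set. Mylk, Srf, Mrtfa, Mrtfb, Tead1, the family partners and several marker genes were named after their values were seen. The gene with the highest correlation to the set is not reported here.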

Additional observations from a re-analysis of the deposited data

How the results depend on the processing

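All 10 contractile genes were called lower with total library size, with DESeq2 size factors, with no low-count filter, with DESeq2 and with limma-voom with 1 weight per group, and 9 to 10 were when a library was left out. With total library size the median log2 fold change of all tested genes was -0.645, against -0.0326 with TMM, and 3529 genes were lower and 1063 higher. Under it 1 other smooth-muscle gene and 1 isoform partner were higher, SRF and its cofactors had 5 lower and 2 higher, and the RhoA list 7 lower and 1 higher. DESeq2 called 4 genes of the SRF list lower. The cause was not tested. Leaving out a library gave 399 to 2574 genes lower and 703 to 2747 higher, other smooth-muscle genes 1 to 6 higher, partners 7 to 12 lower and 1 to 3 higher, the SRF list 1 to 7 higher, and the RhoA list 2 to 5 lower and 1 to 5 higher. Over all genes the low ends came from leaving out a 2D library (399 to 437 lower, 703 to 774 higher). Fits without an organoid library gave 2296 to 2574 lower and 2293 to 2747 higher. The tropomyosin share differed by -0.604 percentage points, and by -8.90 to 6.43 with a library left out (0.652 without organoid 1 and 6.43 without organoid 3). Smtn turned to -0.286 with total library size, Rhoc to -0.598 with it (adjusted p = 0.0485), to -0.0172 with no filter and to -0.0146 without organoid 1 and -0.00109 without 2D culture 3, with a range of -0.0146 to 0.0968 over libraries left out. Rhoa ranged from -0.535 to 0.104, the latter without organoid 2. Leaving out members with fractional counts left no leiomodin share and changed no other. Allowing 1 C or G in the CArG box, chosen after seeing the data, moved the windows with a match from 0 to 1.

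The replicate numbers were not used as pairs: same-numbered libraries had correlated deviations of 0.0606, 0.187 and 0.0207, and not every library correlated best with its own number. With the replicate block all 10 genes were called lower (Tpm1 adjusted p = 0.0333). The replicate block gave 1289 genes lower and 1441 higher among all tested, and 2 other smooth-muscle genes, 1 partner and 3 genes of the SRF list higher.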
